A study of Mus musculus with 38 samples.

Results

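The genes described here are the cytoplasmic ribosomal protein genes, whose products make up the ribosome of the cytosol together with its RNA. Members were taken by name from the array annotation, as gene names that start with Rpl or Rps and a digit, plus Rplp0, Rplp1, Rplp2 and Rpsa, without the Rps6k kinases. This gave 82 of the 27962 gene names on the array, measured by 137 of its 41174 probes. They comprised 42 core proteins of the large subunit, 31 of the small subunit, 3 of the stalk of the large subunit and 5 paralogs (Rpl3l, Rpl7l1, Rpl22l1, Rpl36al and Rps27l). The remaining member, Rps19bp1, encodes a protein that binds Rps19 and is taken by its name only.

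The tumors came from focal hyperplasias of mice carrying the MMTV-PyMT transgene, which drives the polyoma middle T oncoprotein in mammary epithelium, and actin-GFP, which makes donor cells fluorescent. Each hyperplasia was placed in the mammary fat pad of an FVB/n host aged 3 weeks, which keeps its own immune cells, and GFP-positive cells were sorted from the resulting tumors or lungs for RNA. In the progression experiment, adenoma (n = 5) was sampled as outgrowths of 5 weeks and carcinoma (n = 6) as outgrowths of 18 weeks. Disseminated cells (n = 6) came from lungs of mice bearing outgrowths of 18 weeks, with the lungs of 3 to 6 mice pooled per sample. For metastases (n = 5), primary tumors that were outgrowths of 18 weeks were removed by surgery. The lungs of these mice were taken typically 8 to 10 weeks later, so the hosts were older than those of carcinoma and disseminated cells. The chemotherapy experiment held untreated tumors (n = 6), residual tumors (n = 6, labelled Regressed tumor) and relapsed tumors (n = 4, labelled Resistant tumor). Treatment with docetaxel, doxorubicin and cyclophosphamide (TAC) began 8 weeks after transplant; residual tumors were taken 10 days after 1 dose, and relapsed tumors 10 days after the last of 4 doses given every 21 days. The age of the untreated tumors is not given in the sources used here. Each of the 38 arrays compared a sample in the Cy5 channel with a Universal mouse reference RNA in Cy3, so every level below is a log2 ratio of sample to that reference. Such a ratio can be set against other samples for the same gene, but not against another gene.

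Ribosomal proteins are made in near equal amounts and assembled with ribosomal RNA in the nucleolus, and their messages are among the most abundant in a growing cell. In mammals these messages begin with a run of pyrimidines, the terminal oligopyrimidine tract, through which mTOR signaling controls their translation. Some of the proteins also act away from the ribosome: Rpl5 and Rpl11 bind Mdm2 and thereby stabilize p53 when ribosome assembly is disturbed, and Rps6 is phosphorylated by the S6 kinases downstream of mTOR.

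The start sites of the genes on which the results turn are shown because of this tract. RefSeq's promoter sequences for GRCm38.p6 held 73 starts for 62 of the 82 members. Each line gives 30 bases on the transcribed strand, 15 before the annotated start and 15 from it on, with runs of at least 6 pyrimidines in capitals. Rps27, Rps25, Rpl41 and Rpl37a were low in metastases, Rpl13a and Rpl5 were high there, Rplp2 was high in carcinoma, and Rps6 is the S6 kinase substrate. Their positions, in that order, are chr3:90213634-90213663 (minus strand), chr9:44407699-44407728 (plus), chr10:128549154-128549183 (minus), chr1:72711245-72711274 (plus), chr7:45128731-45128760 (minus), chr5:107900513-107900542 (plus), chr7:141447636-141447665 (plus) and chr4:86857353-86857382 (minus).
Rps27: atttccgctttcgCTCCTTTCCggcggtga
Rps25: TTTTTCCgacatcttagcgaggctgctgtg
Rpl41: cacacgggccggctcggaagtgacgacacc
Rpl37a: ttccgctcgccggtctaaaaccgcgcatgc
Rpl13a: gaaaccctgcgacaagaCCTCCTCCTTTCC
Rpl5: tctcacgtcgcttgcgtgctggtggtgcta
Rplp2: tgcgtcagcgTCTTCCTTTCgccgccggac
Rps6: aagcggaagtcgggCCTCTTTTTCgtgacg

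A pyrimidine run of this length lay within the 30 bases of 36 of the 73 member starts (49.3%), against 29.2% of all 32851 starts in the table, and a purine run of the same length in 9.59% of member starts, against 32.4%. The letters CTTTCC, on either strand of the 300 bases around the start, were found at 50.7% of member starts and 26.6% of all starts, and CCGGAAG at 34.2% and 8.86%. Among starts of members called lower in metastases than in carcinoma, 24 of 46 (52.2%) held the pyrimidine run, and among those not called, 11 of 26 (42.3%). For metastases against adenoma these shares were 21 of 36 (58.3%) and 13 of 32 (40.6%). For disseminated cells against carcinoma the order was the other way, with 15 of 34 (44.1%) and 21 of 39 (53.8%). Both kinds of start occur on either side of the results, as the 8 windows show: Rpl41 and Rpl37a, which were low in metastases, have no such run here and Rps27 and Rps25 do. The run of Rps25 lies wholly before the annotated start, and that of Rps27 spans it. A run was counted anywhere in the 30 bases, and the start used in these cells was not tested. The windows therefore do not show whether a message begins with the tract.

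The member probes were bright on these arrays. Of the 82 members, 81 were well above background on every array of both experiments, and no member probe was saturated. The exception was Rpl3l, the muscle paralog of Rpl3, which was not well above background on 2 of the 22 progression arrays and 13 of the 16 chemotherapy arrays. The mean log2 signal of both channels had a median of 16.70 over members in the progression experiment, and members made up 59 of the 216 genes at or above 16 (27.3%). Normalization along the intensity scale therefore rests partly on the members at its bright end. A loess curve fitted without their spots left the count of called members within 1 of the reported count in each of the 9 comparisons. Ribosomal protein genes have many processed pseudogenes, and Rpl36a with Rpl36al and Rps27 with Rps27l are near copies; whether a probe also bound these was not tested.

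The labelled cell type was checked first, because lung samples can carry other cells. Of 14 mammary epithelial genes, at least 13 were well above background on every array of each progression group. The summed signal of that list was 713819 to 824826 in adenoma, 383104 to 851290 in carcinoma, 47525.6 to 604738 in disseminated cells and 59486.2 to 703213 in metastases, on the normalized signal scale of the array. Macrophage genes, 13 of which were measured, summed to 126020 to 170246 in adenoma, 124716 to 915947 in carcinoma, 540136 to 1106200 in disseminated cells and 266692 to 796873 in metastases. At least 9 of the 13 were well above background on every array of each group, and Itgam was well above background on no adenoma array. Alveolar macrophage genes (6 measured) summed to 5593.93 to 11955.1 in adenoma, 18218.7 to 59102 in carcinoma, 264140 to 987922 in disseminated cells and 110599 to 756460 in metastases, and Siglecf was well above background on no adenoma array. Other lists also differed between the groups. Lung epithelial genes (8 measured) summed to at most 4359.09 in adenoma and 5570.26 in carcinoma, against 27494.3 to 394506 in disseminated cells and 14000.9 to 110102 in metastases, and Titf1 was well above background on no array of adenoma, carcinoma or metastases. Endothelial genes (6 measured) summed to 1670.75 to 2489.23, 2127.98 to 5516.52, 6946.97 to 42716.4 and 3514.36 to 14387.8 in the order of the groups. Erythroid genes (4 measured) summed to 2663.6 to 6688.86 in adenoma, 15564.3 to 37822.1 in carcinoma, 35532.8 to 755471 in disseminated cells and 7253.54 to 27308.6 in metastases. Neutrophil genes (7 measured) summed to 67007.7 to 725492 in disseminated cells, against at most 50476.5 in adenoma, 237992 in carcinoma (replicate 6) and 123890 in metastases. The sums of T and NK cell, B cell and fibroblast genes overlapped between all 4 groups. Macrophage signal was thus higher in every lung sample than in any adenoma, and 1 carcinoma array, replicate 6, stood with the lung samples at 915947. In all, 4 arrays correlated with their own group at a median r below that of every other progression array, carcinoma replicate 6 (median r = 0.759 over genes, where the other carcinomas reached at least 0.939), disseminated replicates 6 (0.713) and 4 (0.777) and metastases replicate 4 (0.775). The part of these cells and arrays in the results below was not tested. In sorted bulk samples, fewer cells of a type and less RNA per cell cannot be told apart.

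Across the progression arrays the ribosomal protein genes had their highest group mean in carcinoma and lower means in the lung samples. The median log2 ratio over the 82 members was 0.31, 0.14, 0.07, 0.08 and 0.31 in the 5 adenomas. In carcinoma it ran from −0.15 through a median of 0.63 to 0.95, in disseminated cells from −0.85 through −0.36 to −0.09, and in metastases it was −0.60, −0.80, −0.66, −1.24 and 0.18. All disseminated samples lay below all adenomas; carcinoma replicate 6 lay below the other carcinomas, and metastases replicate 5 lay above the other metastases and within the adenoma range. Macrophage signal sat at opposite ends in these 2 arrays, at 915947 in carcinoma replicate 6, the highest carcinoma, and at 266692 in metastases replicate 5, the lowest of the lung samples. Metastases replicate 2, next lowest at 369166, had a member median of −0.80. Metastases replicate 4 had the lowest mammary epithelial signal of its group, 59486.2, and the lowest member median. Group means of the sample medians were 0.18 ± 0.12 (SD, n = 5) in adenoma, 0.56 ± 0.39 (n = 6) in carcinoma, −0.39 ± 0.29 (n = 6) in disseminated cells and −0.63 ± 0.52 (n = 5) in metastases.

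**Figure D1:**
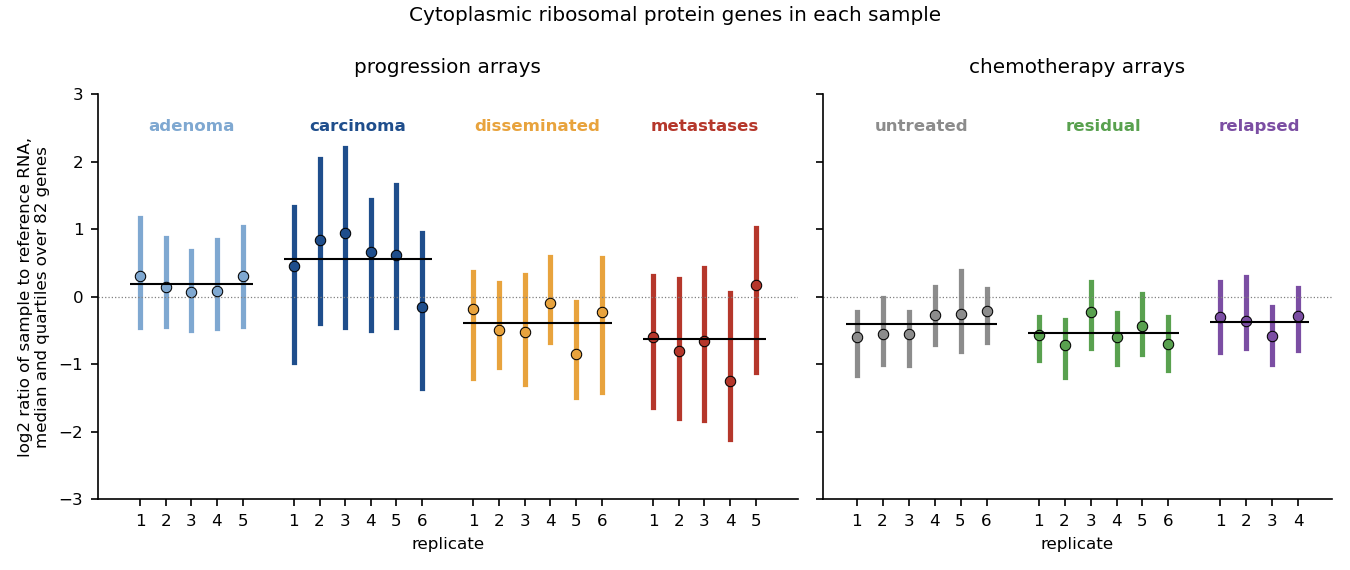
Median log2 ratio of sample to reference RNA over the 82 ribosomal protein genes (points, with the quartiles over genes as bars) for each replicate of the 4 progression groups (left) and the 3 chemotherapy groups (right); black lines are group means. Every disseminated sample lies below every adenoma, while the chemotherapy groups overlap between −0.72 and −0.21.

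Single genes followed several orders. The group mean was highest in carcinoma for 45 members, in adenoma for 26, in metastases for 10 and in disseminated cells for 1. It was lowest in metastases for 47, in disseminated cells for 29, in adenoma for 5 and in carcinoma for 1. For 17 members the mean fell at each step in the order adenoma, carcinoma, disseminated cells, metastases. A member was called in a comparison when limma's adjusted p over all 27962 genes was below 0.05 and the log2 change was at least 1 in size. In all, 15 members were called in no progression comparison: Rpl10, Rpl21, Rpl22l1, Rpl28, Rpl30, Rpl3l, Rpl4, Rpl7l1, Rpl8, Rplp0, Rps2, Rps3a, Rps6, Rps7 and Rpsa. The share of all genes called in no progression comparison was not counted, so the 15 cannot be set against it. The comparisons of the progression experiment share groups, so their calls are not independent of each other.

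Carcinoma against adenoma asked how established tumors differ from early lesions. In this comparison 11 members rose and 4 fell, 18.3% of members, where 3.37% of all genes were called, 1.19% higher and 2.18% lower. The median log2 change over members was 0.33 (quartiles −0.22 and 0.85), against 0.07 over all genes. Of the large subunit genes 5 rose and 1 fell, of the small subunit genes 4 rose and 2 fell, and Rplp2 of the stalk and the paralog Rpl36al rose. Without normalization between arrays the split was 6 higher and 4 lower, and without carcinoma replicate 6 it was 18 higher and 3 lower. Over all genes, 286 were called higher and 447 lower without normalization between arrays. The groups did not overlap for 12 members that were higher and 8 that were lower in carcinoma, where 5.99% of all genes did so in the first direction and 4.64% in the second.

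Rpl9, a large subunit protein near the stalk, rose most. Its log2 ratio was −0.19, −0.54, −0.80, −0.74 and −0.71 in adenoma and ran from 0.26 through a median of 1.51 to 1.65 in carcinoma. The groups did not overlap, and the change was 1.92 ± 0.34 (SE), a 3.79-fold rise with adjusted p = 0.00152. Rpl5 rose by 1.79 ± 0.38 (adjusted p = 0.00604). Rps13 and Rpl23 rose by 1.48 ± 0.28 and 1.45 ± 0.20. Rpl23 was between −0.09 and 0.96 in adenoma and between 1.41 and 2.36 in carcinoma, without overlap. Among the falls, Rps15a was lower in carcinoma by 1.41 on the log2 scale (log2 change −1.41 ± 0.31, adjusted p = 0.00669). Rps19bp1, which is not part of the ribosome, changed by −1.32 ± 0.22 (adjusted p = 0.00118), Rps25 by −1.15 ± 0.28 (adjusted p = 0.0115) and Rpl18 by −1.06 ± 0.31 (adjusted p = 0.0325). The second, dimmer probes of Rps25, Rps15a and Rps13 did not share these changes, with 0.32, 0.18 and −0.13. Ribosomal protein genes therefore moved in both directions between adenoma and carcinoma.

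The disseminated cells were compared with both tumor stages to ask what sets tumor cells in the lung apart before metastases grow. Against adenoma 17 members fell and 0 rose, 20.7% of members, where 10.7% of all genes were called (5.97% lower), and 76 of the 82 log2 changes were negative. The median was −0.62 (quartiles −0.93 and −0.34), against −0.01 over all genes. Against carcinoma 37 members fell and 0 rose, 45.1%, where 11.7% of all genes were called (6.19% lower), with a median of −0.92 against −0.07 over all genes. The large subunit accounted for 19 of these falls, the small subunit for 15, the paralogs for 2 and the stalk for 1. Disseminated cells lay wholly below adenoma for 13 members and wholly below carcinoma for 20, where 5.16% of all genes did so in either comparison, and no member lay wholly above. The count against adenoma was 10 without disseminated replicate 5 and 8, all lower, with the authors' deposited log2 ratios. With those ratios 1540 of all 27962 genes were called higher and 1184 lower, where the main fit gave 1321 and 1669.

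The largest fall against adenoma was that of Rpl36, a small protein of the large subunit. Its log2 ratio was 0.39, 0.52, 1.08, 1.69 and 0.55 in adenoma and ran from −2.16 through −1.18 to 0.58 in disseminated cells. Disseminated replicate 4 lay within the adenoma range, and the other 5 samples lay below it. The change was −1.88 ± 0.43 (adjusted p = 0.00559), a 3.68-fold fall. Rpl41, which encodes an exceptionally short basic peptide, changed by −1.81 ± 0.42, Rps27l by −1.66 ± 0.42 and Rps21 by −1.49 ± 0.40, with adjusted p between 0.00566 and 0.0133.

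Against carcinoma, Rps26 of the small subunit was among the members that fell furthest. It ran from 1.95 through 3.08 to 4.28 in carcinoma and from −0.01 through 0.86 to 1.66 in disseminated cells. These ranges did not meet, and the change was −2.23 ± 0.41 (adjusted p = 0.000716), a 4.71-fold fall. Rpl36a, Rpl32 and Rps28 changed by −2.14 ± 0.28, −2.01 ± 0.36 and −1.91 ± 0.28. Rpl32 was one of the genes that had risen from adenoma to carcinoma, by 1.23 ± 0.38.

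Metastases were compared with both primary stages as the end point of progression. Against adenoma 36 members fell and 6 rose, 51.2% of members, where 14.8% of all genes were called (6.13% higher and 8.62% lower), and the median was −0.75 (quartiles −1.77 and −0.02) against 0.01 over all genes. Against carcinoma 51 fell and 1 rose, 63.4%, where 10.2% of all genes were called (4.79% higher and 5.41% lower), with a median of −1.23 against −0.05. In the comparison with adenoma 19 large subunit genes fell and 5 rose, and 15 small subunit genes fell and 0 rose. In that with carcinoma 28 large and 20 small subunit genes fell, as did Rplp1, Rplp2 and Rps27l. The groups did not overlap for 33 lower and 5 higher members against adenoma (11.9% and 9.81% of all genes) and for 22 lower and 3 higher members against carcinoma (8.84% and 4.84%). Leaving out carcinoma replicate 6 and metastases replicate 5 together, 54 fell and 2 rose against carcinoma, with a median of −1.55.

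Rpl41 fell furthest from adenoma. It gave 1.27, 1.61, 2.65, 2.12 and 1.77 in adenoma and −1.53, −1.43, −1.81, −1.90 and −0.94 in metastases. Carcinoma ran from −0.38 through 1.08 to 1.61 and overlapped adenoma, and disseminated cells, from −1.38 through −0.01 to 1.56, overlapped both adenoma and metastases. The change from adenoma was −3.40 ± 0.44 (adjusted p = 3.03e-05), a 10.6-fold fall, and that from carcinoma was −2.40 ± 0.42 (adjusted p = 0.000757).

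Rps25, a small subunit protein known for its role in translation from internal entry sites, fell with narrow groups at both ends. It gave −0.19, −0.11, −0.15, −0.03 and −0.15 in adenoma and −3.17, −3.51, −3.34, −3.51 and −2.79 in metastases, and ran from −1.88 through −1.13 to −0.92 in carcinoma and from −2.05 through −0.76 to 0.04 in disseminated cells. Every metastasis lay below every sample of the other 3 groups. The changes were −3.14 ± 0.29 against adenoma (8.82-fold lower, adjusted p = 1.78e-06), −1.99 ± 0.28 against carcinoma and −2.44 ± 0.28 against disseminated cells (adjusted p = 4.5e-05). These values come from the brighter of 2 probes (mean log2 signal 16.67). The dimmer probe, at 9.62, gave −0.97 against adenoma, −1.29 against carcinoma and −0.02 against disseminated cells, and of these only the second was called.

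Further large falls from adenoma were those of Rpl36 (−3.18 ± 0.45), Rps15 (−2.86 ± 0.41) and Rpl37a (−2.75 ± 0.50), with adjusted p of 6.5e-05, 6.41e-05 and 0.000505. From carcinoma they were those of Rpl36 (−2.96 ± 0.43), Rps27 (−2.85 ± 0.41), Rps29 (−2.84 ± 0.29), Rpl37a (−2.75 ± 0.48) and Rpl27 (−2.45 ± 0.35). Rps27 and Rps29 are zinc-binding proteins of the small subunit, and Rpl37a is one of the large subunit. Rps27 was 1.18, 0.89, 0.61, 0.86 and 1.27 in adenoma, ran from −0.76 to 2.24 in carcinoma and from −0.35 to 0.96 in disseminated cells, and was −1.36, −1.77, −2.06, −2.44 and −0.61 in metastases. Metastases overlapped carcinoma in Rps27 only through carcinoma replicate 6, which at −0.76 lay below metastases replicate 5.

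The members that rose in metastases from adenoma were Rpl13a, Rpl5, Rpl36al, Rpl9, Rpl3 and Rpl27a, whose second probe gave −0.23. Rpl13a, a large subunit protein that in interferon-treated macrophages leaves the ribosome and represses inflammatory messages, changed most. It gave −1.04, −1.12, −0.45, −0.80 and −1.65 in adenoma and 2.13, 2.36, 2.76, 1.20 and 1.68 in metastases. In carcinoma it ran from −1.58 through −1.26 to 0.86, with replicate 6 highest, and in disseminated cells from −2.53 through −1.37 to 1.67, with replicate 6 highest. All metastases lay above all adenomas and carcinomas, and disseminated replicate 6 lay within the metastases range. The rise was 3.03 ± 0.60 from adenoma (8.19-fold, adjusted p = 0.00102), 2.85 ± 0.58 from carcinoma and 3.20 ± 0.58 from disseminated cells (9.16-fold, adjusted p = 0.00153), and it was the only called rise among members against carcinoma.

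Rpl5, the partner of Rpl11 in the complex that binds Mdm2, was −1.25, −1.66, −2.0, −1.97 and −1.41 in adenoma and 0.71, 1.27, 1.17, 0.66 and 1.0 in metastases. It ran from −0.48 through 0.17 to 0.60 in carcinoma and from −2.21 through −1.15 to 0.75 in disseminated cells. The metastases lay above all adenomas and carcinomas, with changes of 2.62 ± 0.40 from adenoma (6.15-fold, adjusted p = 0.000119) and 0.83 ± 0.38 from carcinoma (adjusted p = 0.133). Rpl36al, the paralog of Rpl36a, was 2.35, 1.74, 1.68, 1.77 and 1.63 in adenoma and 3.20, 3.49, 3.96, 4.29 and 4.49 in metastases, a rise of 2.05 ± 0.41 without overlap. Rpl9 and Rpl3 rose by 1.78 ± 0.35 and 1.61 ± 0.36. Rpl13a, Rpl5, Rpl9 and Rpl36al were each measured by 1 probe. The same holds for the falls of Rpl41, Rps15, Rpl37a, Rps27, Rps29, Rpl27, Rpl38, Rps27l, Rps26 and Rpl32, so agreement between probes could not be examined for any of these genes.

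**Figure D2:**
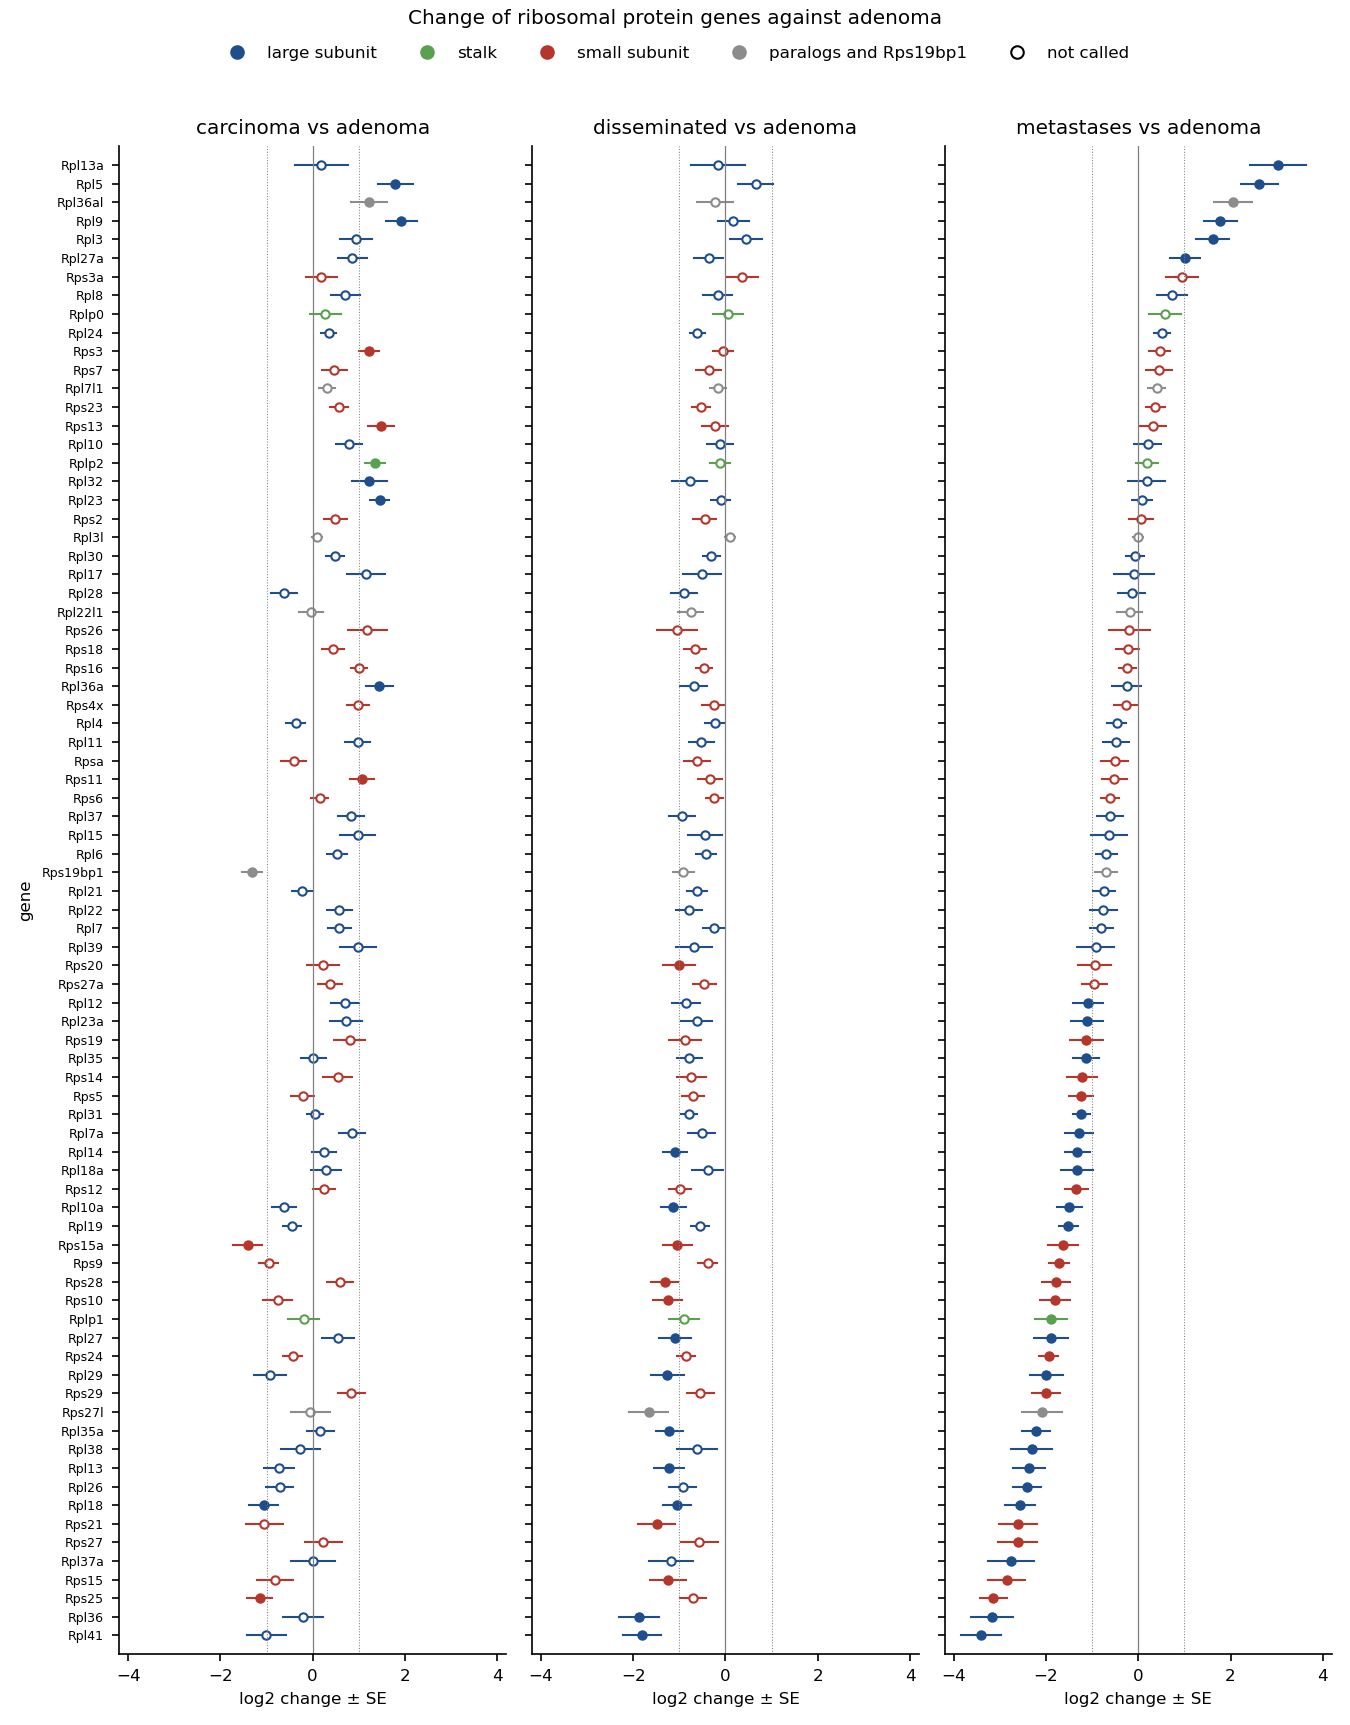
Log2 change ± SE against adenoma of 80 of the 82 genes in carcinoma, disseminated cells and metastases, ordered by the change in metastases; filled points were called, and colors mark the subunit. Called genes in metastases run from Rpl41 (−3.40) to Rpl13a (3.03), while no gene was called higher in disseminated cells.

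Between the lung samples, 13 members were lower and 7 higher in metastases than in disseminated cells, 24.4% of members, where 7.2% of all genes were called (3.74% lower and 3.45% higher). The median was −0.23 (quartiles −0.76 and 0.49), against 0.01 over all genes, and 35 of the 82 log2 changes were positive. The median was −0.09 without metastases replicate 4, −0.39 without metastases replicate 5 and −0.05 with the mean of all probes of a gene. Without normalization between arrays the split was 5 higher and 18 lower, and the count was 9 when only these groups were fitted. Over all genes, 915 were called higher and 1189 lower without normalization between arrays. The groups did not overlap for 2 higher and 6 lower members, where 2.18% and 2.02% of all genes did so. Besides Rpl13a, the rises were led by Rpl36al (2.28 ± 0.40), Rpl5 (1.97 ± 0.38), Rpl9 (1.61 ± 0.34) and Rpl27a (1.38 ± 0.31). After Rps25, the falls were led by Rps27 (−2.04 ± 0.41), Rpl38 (−1.69 ± 0.43), Rps15 (−1.62 ± 0.39) and Rpl41 (−1.59 ± 0.42). Rpl38, a large subunit protein needed for translation of Hox messages, was 0.58 to 1.03 in adenoma and −2.80 to −0.69 in metastases. The called rises were 6 large subunit genes and 1 paralog, and the called falls were 7 large and 6 small subunit genes.

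**Figure D3:**
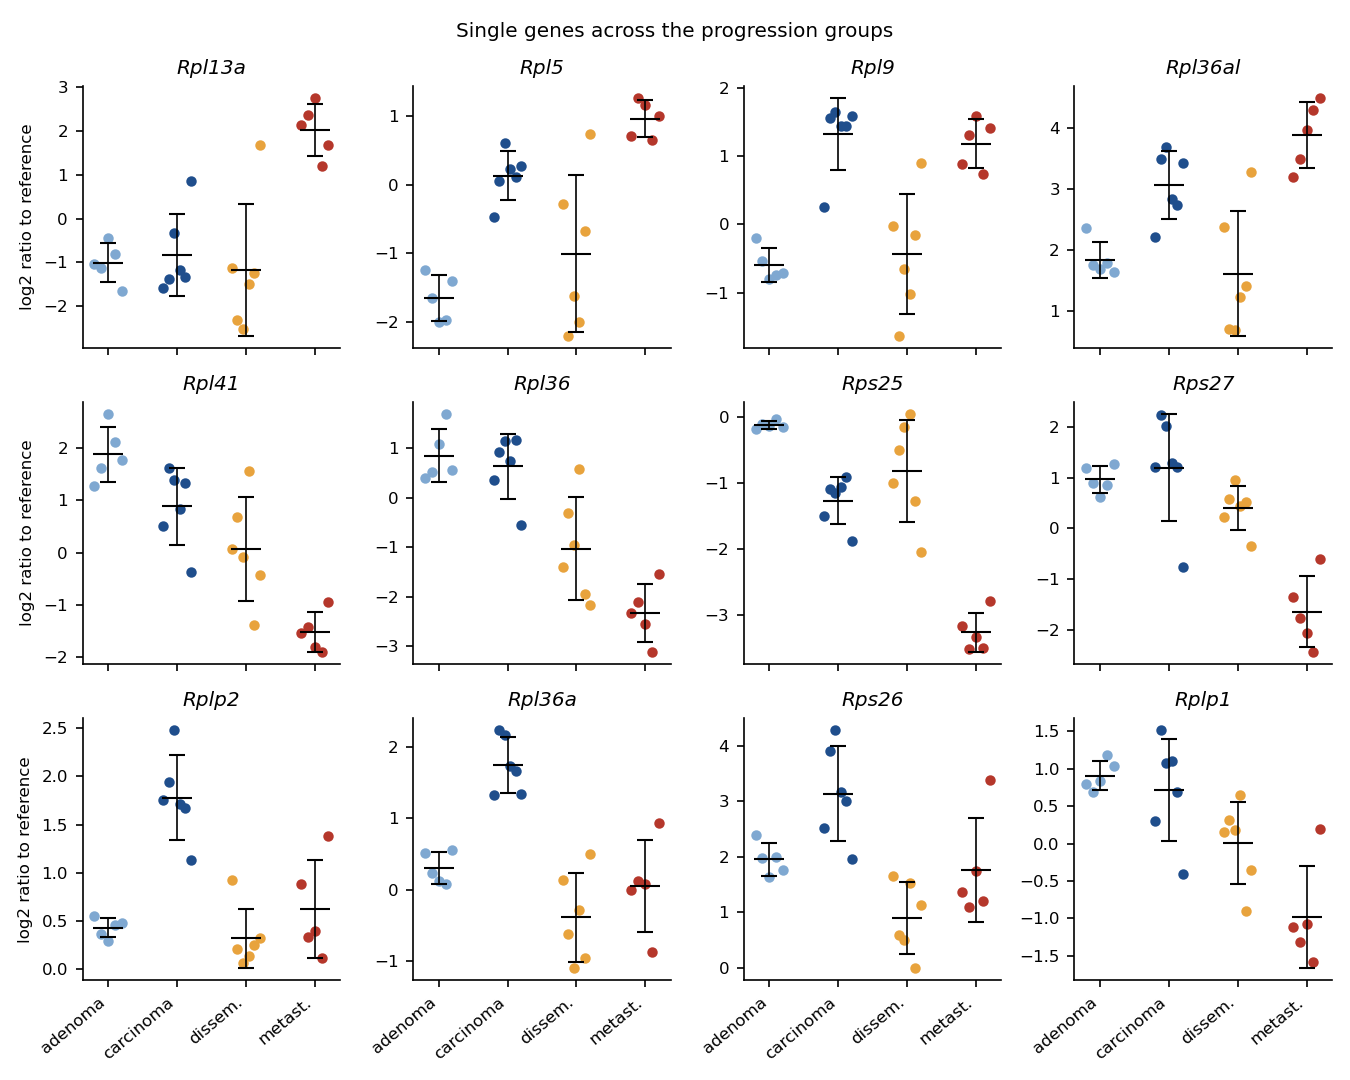
Log2 ratio to reference RNA of 12 ribosomal protein genes in every sample of the progression groups, with group mean and SD in black. The upper row holds 4 genes called higher in metastases than in adenoma, the middle row 4 called lower, and the lower row Rplp2, Rpl36a, Rps26 and Rplp1.

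The 3 stalk proteins, which recruit the elongation factors to the ribosome, had different profiles. Rplp0, the base of the stalk and a common reference gene in PCR assays, had group means of −2.17 ± 0.62, −1.89 ± 0.65, −2.11 ± 0.60 and −1.59 ± 0.27 in adenoma, carcinoma, disseminated cells and metastases and was called nowhere. Its probe is placed by the array annotation on another chromosome than the RefSeq gene. Rplp1 was 0.80, 0.69, 0.84, 1.18 and 1.03 in adenoma and −1.12, −1.31, −1.07, −1.59 and 0.19 in metastases. All metastases lay below all adenomas, and Rplp1 changed by −1.89 ± 0.35 (adjusted p = 0.000551). Rplp2 was 0.29 to 0.56 in adenoma, 1.13 to 2.48 in carcinoma, 0.06 to 0.92 in disseminated cells and 0.11 to 1.38 in metastases. It rose by 1.35 ± 0.22 from adenoma to carcinoma (adjusted p = 0.000936), and changed by −1.46 ± 0.21 in disseminated cells and −1.16 ± 0.22 in metastases against carcinoma.

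Members with known roles outside translation were also mixed. Rpl11 was 1.06 to 2.61 in carcinoma and −0.07 to 0.91 in disseminated cells, without overlap, and changed by −1.5 ± 0.26 (adjusted p = 0.00046) while in metastases against carcinoma the change was −1.47 ± 0.27. A second Rpl11 probe gave −1.19 and −0.31. Between metastases and carcinoma its partner Rpl5 changed by 0.83. Mdm2, the ubiquitin ligase they bind, rose in metastases by 1.19 ± 0.33 from adenoma (adjusted p = 0.011) and 1.17 ± 0.32 from carcinoma. Rps6 ranged from −3.08 to −1.73 over all 22 arrays and its largest change was −0.76 ± 0.18, in metastases against carcinoma (adjusted p = 0.00625), below the fold needed for a call. Rps3, which also takes part in DNA repair, rose from adenoma (−0.43 to 0.08) to carcinoma (0.58 to 1.86) by 1.23 ± 0.22 and changed by −1.29 ± 0.21 in disseminated cells against carcinoma. Rps19, the gene most often mutated in Diamond-Blackfan anemia, changed by −1.68 ± 0.33 in disseminated cells and −1.93 ± 0.34 in metastases against carcinoma, while a second Rps19 probe, above background on all 22 arrays, gave −0.02 and 0.12. Rpsa, the laminin receptor, had group means between −2.57 and −1.96 and was not called. Its dimmer probe, at 9.51 against 15.57, gave −1.53 in disseminated cells and −1.74 in metastases against carcinoma, both called.

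The paralogs did not follow their partners in every case. Rps27l, a p53-induced paralog of Rps27, was 1.44 to 2.21 in adenoma and −0.82 to 0.62 in metastases and changed by −2.09 ± 0.44 (adjusted p = 0.00153), while Rps27 itself was likewise lower in metastases. Rpl36al was 3.20 to 4.49 in metastases against 1.63 to 2.35 in adenoma, whereas the change of Rpl36a was −0.25, not called. Rpl22 changed by −1.37 ± 0.26 and −1.33 ± 0.27 in disseminated cells and metastases against carcinoma; for its paralog Rpl22l1 these values were −0.72 ± 0.25 and −0.15 ± 0.26, not called. The second Rpl22 probe, at a signal of 13.85 against 16.65, gave −1.18 in disseminated cells and 0.08 in metastases, so the difference from Rpl22l1 in metastases rests on 1 probe. Rpl3l, close to background, had log2 changes between −0.10 and 0.09.

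The name rule leaves out some proteins of the same ribosome, of which Gnb2l1 fell and Fau was not called. Gnb2l1, the scaffold protein Rack1 of the small subunit, changed by −1.14 in disseminated cells and −1.49 in metastases against carcinoma, both called. Fau, a ribosomal protein made as a fusion to a ubiquitin-like protein, had −0.74 in metastases against carcinoma. Myc, a transcription factor that drives ribosomal protein genes, fell by 1.99 on the log2 scale from adenoma to carcinoma (log2 change −1.99 ± 0.34, adjusted p = 0.0014), and its change in metastases against adenoma was −2.58 ± 0.36.

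Other translation lists were counted in the same way, the mitochondrial ribosome first. Of 75 mitochondrial ribosomal protein genes, 0 were called between carcinoma and adenoma, with a median of −0.02. In disseminated cells 21 fell against adenoma and 13 against carcinoma, and 0 rose, with medians of −0.70 and −0.63. In metastases 31 fell and 1 rose against adenoma (median −0.82), and 24 fell and 1 rose against carcinoma (median −0.69). Mrps16 (−2.45) led the falls against adenoma and Mrps34 (−1.97) those against carcinoma, and Mrps23 rose by 2.00 from adenoma. Of 28 translation factors, 3 rose and 4 fell in metastases against adenoma, and 5 rose and 4 fell against carcinoma, with medians of −0.16 and −0.10. Eif3s10, a subunit of initiation factor eIF3, changed by −3.02 against adenoma, and Itgb4bp, the factor eIF6 that keeps the subunits apart, rose by 2.25. Of 39 ribosome biogenesis genes, 8 rose and 9 fell in metastases against adenoma and 6 rose and 2 fell against carcinoma, with medians of −0.27 and −0.05. Bxdc2, the assembly factor Brix, rose by 1.49 and 1.52 in these comparisons. Of all genes, 3.37% were called between carcinoma and adenoma. In disseminated cells 10.7% of all genes were called against adenoma (5.97% lower) and 11.7% against carcinoma (6.19% lower). In metastases 6.13% were called higher and 8.62% lower against adenoma, and 4.79% and 5.41% against carcinoma. Medians over all genes lay between −0.07 and 0.07 in these comparisons. The counts describe the lists beside the ribosomal protein genes, and no difference between lists was tested.

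**Figure D4:**
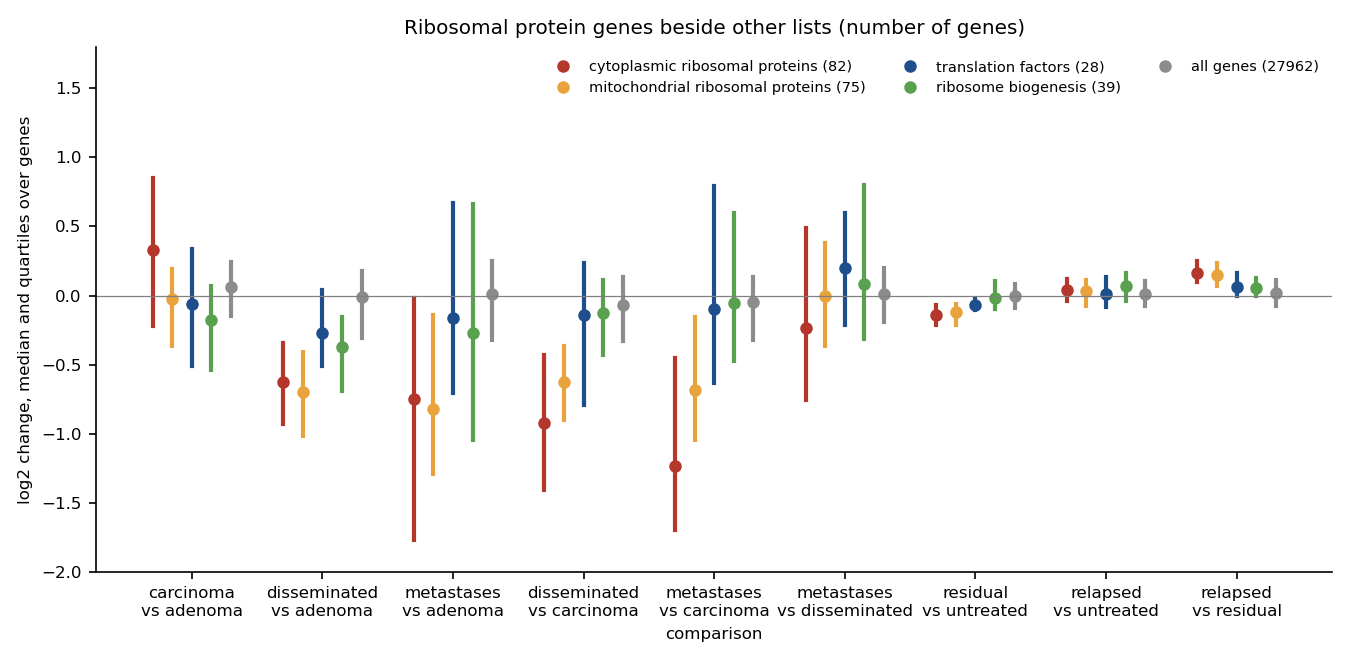
Median log2 change (points) and quartiles over genes (bars) for cytoplasmic ribosomal protein genes, 3 other lists and all genes in each of the 9 comparisons, with the number of genes measured in the key. The medians of the cytoplasmic list run from −1.23 (metastases vs carcinoma) to 0.33 (carcinoma vs adenoma), and all lists lie close to 0 in the chemotherapy comparisons.

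Agreement between probes was examined in the 41 members with 2 or more probes. All probes of a gene had the same sign of change in 34 of 41 (82.9%) for disseminated cells against adenoma, where the share over all genes with 2 or more probes was 55.3%. The share was 29 of 41 (70.7%) for disseminated cells against carcinoma, 28 (68.3%) for carcinoma against adenoma, 26 (63.4%) for metastases against carcinoma, 22 (53.7%) for metastases against disseminated cells and 21 (51.2%) for metastases against adenoma. Over all genes these shares were 57.9%, 52.0%, 52.0%, 50.7% and 48.3%, so the last 2 shares of the members lay near those of all genes. With probes above background on every array, which left 37 members, these shares were 94.6% for disseminated cells and 59.5% for metastases against adenoma, and 73.0% for metastases against carcinoma, where all genes gave 68.5%, 58.1% and 63.0%. Where the brightest probe was called in metastases against carcinoma, all probes had its sign in 19 of 26 genes (73.1%) and all were called in 8 (30.8%), where all genes gave 60.7% and 13.4%.

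Probes of some genes gave nearly equal changes. The 3 probes of Rps28 on chromosome 17 changed by −2.38, −2.53 and −2.26 in metastases against carcinoma, and both probes of Rpl36 by −2.96 and −2.67. The array annotation places the probes of each of these genes at overlapping or adjoining positions, so their near equal values are not independent agreement. The 4 probes of Rpl29 on chromosome 9 all fell in metastases against adenoma but by different amounts, −1.99, −3.50, −2.40 and −3.50. Their annotated positions overlap in pairs, so these are not 4 independent measures either. Others differed in direction. For Rps12 the bright probe, with a mean log2 signal of 16.94, changed by −1.58 in metastases against carcinoma and a dim probe, at 9.65, by 1.92, and both were called. Rps20 had the same form, with −1.17 at a signal of 17.25 and 1.49 at 9.85. Dimness did not mark all disagreement: the second probe of Rps2, at 16.99, rose by 1.59 in metastases against adenoma where the brightest gave 0.06. The widest ranges between probes in the progression experiment were those of Rps12 (3.57), Rpl35a (2.82), Rpl13 (2.71), Rps20 (2.66) and Rpl17 (2.58). Rpl17 gave 1.15 and −1.43 in carcinoma against adenoma from probes at 16.61 and 15.99. With the mean of all probes of a gene in place of the brightest, no count of called members moved by more than 1.5 times. For metastases against carcinoma the count went from 52 to 41, and the median from −1.23 to −0.99. For carcinoma against adenoma 14 members were called, of which 11 were among the 15 called by the brightest probe. The share of all genes called was not counted with this mean.

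**Figure D5:**
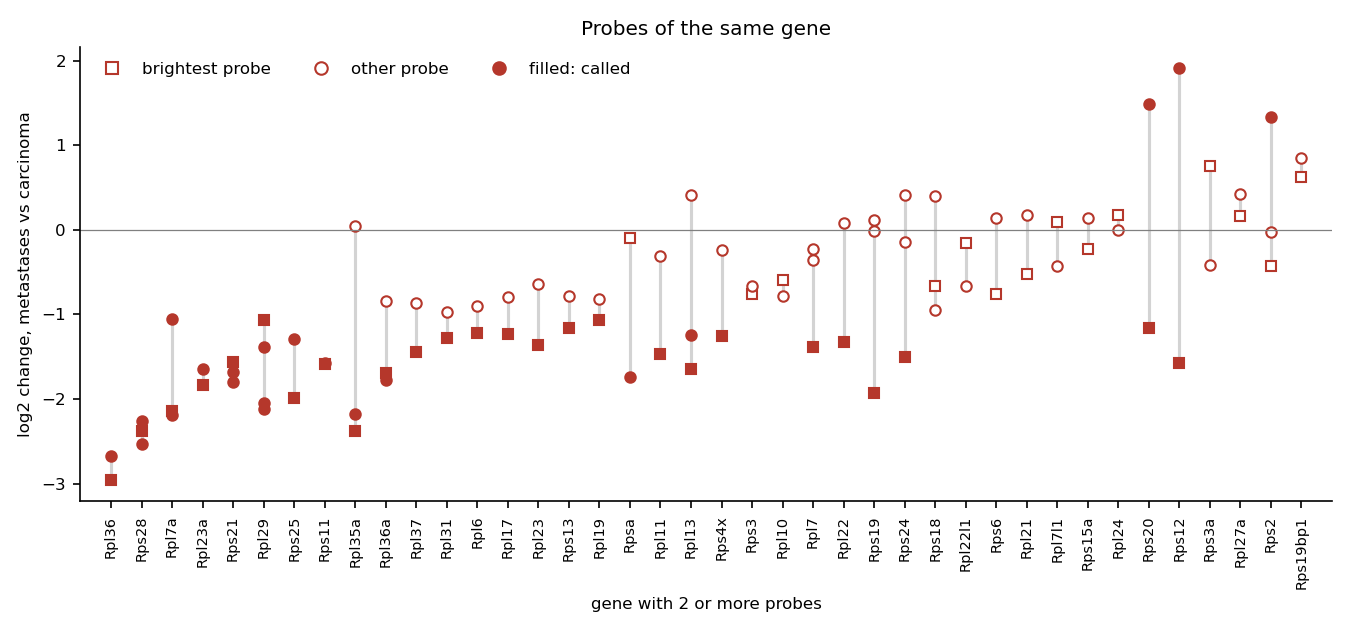
Log2 change in metastases against carcinoma for every probe of 40 of the 41 ribosomal protein genes with 2 or more probes, ordered by the gene mean; squares mark the brightest probe of a gene, filled symbols were called, and grey bars span the probes of a gene. The probes of Rps28, which overlap or adjoin in position, lie within −2.53 and −2.26, whereas those of Rps12 lie at −1.58 and 1.92.

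Slides and scan days limited which comparisons were balanced. Carcinoma and metastases shared slides, as did adenoma and disseminated cells, and each of these pairs had its own scan day. Within the 3 slides that held both, the member median was −1.07, −1.61 and −1.06 for metastases against carcinoma and −0.54, −0.93 and −0.39 for disseminated cells against adenoma. For the other 4 pairs of progression groups, slide set and scan day cannot be told apart from the groups.

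The chemotherapy experiment asked whether residual and relapsed tumor cells differ from untreated ones. No member was called in any of its comparisons by limma, and the methods' t-test also called 0. All genes were called at 0.1% between residual and untreated tumors, 0.0107% between relapsed and untreated and 0.218% between relapsed and residual. At an unadjusted p below 0.05 there were 4, 1 and 7 members, where 9.16%, 7.7% and 7.77% of all genes had such a p, and the lowest adjusted p was 0.381, 0.55 and 0.171. The member median was −0.14 for residual against untreated (73 of 82 negative), 0.04 for relapsed against untreated (49 positive) and 0.17 for relapsed against residual (75 positive). Without normalization between arrays these medians were −0.02 (46 negative), 0.00 (41 positive) and −0.01 (40 positive). With the authors' deposited log2 ratios they were −0.02 (47 negative), 0.00 (42 positive) and 0.00 (41 positive). Leaving out residual replicate 2 gave −0.09 for residual against untreated, and leaving out relapsed replicate 3 gave 0.10 for relapsed against untreated. The chemotherapy groups lay on partly different slides, and each pair shared only 1, with 2 arrays of the first group and 1 of the second. Within that slide the member median was −0.05 for residual against untreated, −0.20 for relapsed against untreated and 0.36 for relapsed against residual.

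Levels in the chemotherapy groups overlapped. The sample medians over members ran from −0.60 through −0.41 to −0.21 in untreated tumors and from −0.72 through −0.58 to −0.23 in residual tumors; they lay between −0.58 and −0.29 in the 4 relapsed tumors. In residual against untreated tumors the changes ran from −0.45 ± 0.19 (Rpl13a) to 0.12 ± 0.17 (Rpl22l1). Rpl13a ran from −0.63 through −0.13 to 0.39 in untreated and from −1.05 through −0.71 to −0.06 in residual tumors and was −0.37, −0.29, −0.72 and −0.46 in relapsed tumors, so all groups overlapped. Rps25 separated relapsed tumors (0.44, 0.44, 0.39 and 0.08) from residual tumors (−0.22 through −0.10 to 0.04), and its change of 0.43 ± 0.11 had an adjusted p of 0.171. It was the only member whose residual and relapsed groups did not overlap, as Rpl9 was for relapsed against untreated, where 1.7% and 1.69% of all genes did not overlap; residual and untreated groups overlapped for every member, where 0.784% of all genes did not. The largest difference was that of Rpl38 between relapsed and residual tumors, 0.71 ± 0.30 (adjusted p = 0.583), with relapsed tumors at 1.33, 1.14, 1.81 and 1.66 and residual tumors from 0.20 to 1.26. The median range between probes of a gene was 0.13, 0.12 and 0.12 in the 3 comparisons, against 1.06 in metastases against adenoma. Over all genes with 2 or more probes these values were 0.14, 0.15 and 0.15, against 0.65. Macrophage genes summed to 36421 to 186749 across these arrays and mammary epithelial genes to 497688 to 740593, with overlapping groups.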

How the data were processed

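Sorted tumor cell RNA was hybridized to Agilent two-color whole mouse genome arrays (38 arrays; design build mm7 per the file headers), after 2 rounds of amplification in the progression experiment and 1 in the chemotherapy experiment. The deposited scanner files hold spot intensities, local background and quality flags from Agilent Feature Extraction 10.7, named in the submitters' processing notes with limma. The authors also deposited a table of log2 ratios, which was used as an alternative. Its columns had medians of 0.025 to 0.053 (progression) and 0.0047 to 0.0173 (chemotherapy). They correlated with the normalized values used here at 0.966 to 0.999 and 0.995 to 0.999, so the direction is the same. A correlation does not show whether the scale is the same. Other deposited columns, the flags for outlier spots, saturation and signal well above background, were used as given.

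Intensities were corrected with normexp (offset 50), normalized by loess within arrays (control and outlier spots at weight 0) and by quantile between arrays, apart for each experiment, in limma 3.58.1 (R 4.3.3). Replicate spots were averaged by probe, and each gene name was represented by its brightest probe over the experiment. Spots flagged as outliers were dropped, which left no member without a value. The dyes were not swapped. Groups were compared with lmFit and eBayes over all groups of an experiment, with Benjamini-Hochberg adjustment over all 27962 genes and a gene was called when the adjusted p lay below 0.05 and the log2 change reached 1 in size. On simulated data, 71% of genes changed by 1.5 and 91% of genes changed by 2.5 on the log2 scale were recovered for carcinoma against adenoma, and 96% and 100% for residual against untreated, each with 27962 genes. The simulated noise was independent between genes and arrays and had the same spread in all groups, without outlying arrays or slide differences. Changes below 1.5 were not simulated, so these shares do not apply to the smaller differences in the chemotherapy experiment. The number of arrays limits the precision. Nothing in the sources names separate animals for each replicate, so p-values measure the spread between these samples.

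The named genes are the stalk genes and members with known roles or paralogs, for each comparison the 5 largest called rises and falls, members whose probes were called in opposite directions or had the 5 widest ranges, and of each other list the 2 largest called changes each way. Beyond these, Rpl29 and Rps2 were chosen as probe examples after their values were seen. A few genes that this rule takes are not reported here by name, but they stay in every count and median. The members, lists and tests were chosen with earlier results of these data known. Of the probe accessions, 113 matched RefSeq as the same gene, 2 under another name and 22 were not in the table. Rpl34, Rpl39l and Rps4l stand on the array under older names and are not among the members. Alternatives covered background correction, normalization, probe choice, filters, slide and replicate blocks, the samples fitted, the threshold, the test and each replicate left out. Same-numbered replicates did not deviate together (8 of 31 pairs correlated above 0.1 in progression and 6 of 14 in chemotherapy), so the numbers were not taken to pair samples.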

Additional observations from a re-analysis of the deposited data

Results flagged for a closer look

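In 26 of the 315 groups of values examined (44 named genes and the member medians over 7 groups of samples), 1 sample stood apart from the rest of its group by more than Dixon's 95% criterion, which chance alone reaches in about 1 group in 20. All values are log2 ratios to the reference RNA. The named replicates of a group have no order.

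Carcinoma replicate 6 was the lowest of its group for Rpl21 (−0.76), Rps21 (−1.78) and Rps27 (−0.76) and the highest for Rps15a (−2.70). Carcinoma replicate 1 was the lowest for Rpl9 (0.26) and Rps6 (−2.6). Metastases replicate 5 was the highest for Rpl32 (2.49), Rplp1 (0.19), Rps15 (−2.09) and Rps26 (3.39), and metastases replicate 4 was the lowest for Rps24 (−3.47). Disseminated replicate 6 was the highest for Rpl13a (1.67) and disseminated replicate 1 for Rplp2 (0.92). Adenoma replicate 1 was the highest for Rpl36al (2.35).

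Among the chemotherapy arrays, untreated replicate 4 was the lowest for Rpl9 (−0.76) and untreated replicate 5 the highest for Rps19 (0.81). Residual replicate 6 was the lowest for Rpl22l1 (−1.15), and residual replicate 3 the highest for Rps13 (0.21) and Rps28 (0.42). Relapsed replicate 3 was the lowest for Rpl37a (−0.27), Rps12 (−0.086) and Rps29 (0.13) and the highest for Rpl9 (−0.29). Relapsed replicate 4 was the highest for Rplp0 (−0.87) and the lowest for Rps25 (0.083), and relapsed replicate 1 the highest for Rps19bp1 (−0.26).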

How the results depend on the processing

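The count of called members moved by more than 1.5 times in these cases: disseminated cells against adenoma (17) gave 8 with the authors' deposited log2 ratios, 6 with the methods' t-test and 30 with no fold threshold; carcinoma against adenoma (15) gave 23 when every probe was tested; and metastases against disseminated cells (20) gave 33 when every probe was tested, 9 with only these groups fitted and 4 with the t-test. Leaving out each replicate in turn gave 12 to 21 (without carcinoma replicate 6) for carcinoma against adenoma, between 10 (without disseminated replicate 5) and 24 (replicate 4 left out) for disseminated cells against adenoma, 40 to 45 for metastases against adenoma, 35 to 45 for disseminated cells against carcinoma, 45 to 55 for metastases against carcinoma and 15 to 27 for metastases against disseminated cells. The chemotherapy counts were 0 under each alternative. Testing more probes or fewer samples changes the counts by construction, and otherwise the cause was not tested. Except where counts over all genes are given above, the share of all genes called under these alternatives and those below is not given. A change particular to the members can therefore not be told apart from a general change in calls.

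The replicate number as a block gave 11 higher and 2 lower for carcinoma against adenoma, 12 lower for disseminated cells against adenoma, 6 and 36 for metastases against adenoma, 38 lower for disseminated cells against carcinoma, 2 and 52 for metastases against carcinoma and 7 and 19 for metastases against disseminated cells; this block moved no count by more than 1.5 times. With slide as a fixed block there were 20 calls for disseminated cells against adenoma and 53 for metastases against carcinoma.

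Alternatives chosen after seeing the data were a median in place of loess within arrays, a loess curve fitted without member spots, and leaving out carcinoma replicate 6 and metastases replicate 5 together. The last gave 19 higher and 3 lower for carcinoma against adenoma, 19 lower for disseminated cells against adenoma and 45 against carcinoma, 6 higher and 39 lower for metastases against adenoma, 2 and 54 against carcinoma and 6 and 20 against disseminated cells. For the 68 called changes of named genes, 1705 recomputed values kept direction and call, 80 kept direction and missed the call, and 0 turned direction. Where every probe was tested, only the brightest probe of a gene entered these counts. Second probes of opposite sign, such as those of Rps25, Rps15a and Rps13, were therefore not counted as turned.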

Other observations

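In 27 of the members with 2 or more probes, the probes lie at different positions along the gene, and the change at the most upstream probe can be set against that at the most downstream one. The median difference (upstream minus downstream, log2) was 0.01 in carcinoma against adenoma, 0.11 and 0.09 in disseminated cells and metastases against adenoma, 0.09 and 0.23 in disseminated cells and metastases against carcinoma, and 0.01 in metastases against disseminated cells. The upstream probe had the lower value in 13, 10, 12, 11, 10 and 13 of the 27 genes (48.1%, 37.0%, 44.4%, 40.7%, 37.0% and 48.1%), where it had the lower value in 48.7%, 51.7%, 46.8%, 54.7%, 48.1% and 44.2% of all 2008 genes with such probes. In the chemotherapy experiment it was lower in 15, 20 and 18 of 27 (55.6%, 74.1% and 66.7%) for residual against untreated, relapsed against untreated and relapsed against residual tumors, and in 58.5%, 68.9% and 64.6% of all 2545 genes.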
